A study of Mus musculus with 4 samples.

Results

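The Zbtb genes together with Bcl6 and Bcl6b were followed in early B-lineage cells with and without Hdac3. Members were all entries of the deposited table whose symbol starts with Zbtb and a digit, plus Bcl6 and Bcl6b, which gave 40 of 23275 entries. The cells were B220+CD43+ cells of C57BL/6 bone marrow at 8 weeks of age, from Hdac3+/+Mb1cre+/- mice (wild-type here) or Hdac3F/-Mb1cre+/- mice (Hdac3-deleted here). Mb1cre, a recombinase driven from the Cd79a gene of B-lineage cells, is carried by both groups. The labels give only the deleted group a conditional allele (F), over a second, null allele (-). Cells of that group that never expressed Mb1cre kept the conditional allele but still carried the null allele, unlike wild-type cells. Each genotype had 2 libraries of polyadenylated RNA, each from a pool of 2 mice. The table gives 1 level per gene and genotype in FPKM, fragments scaled to transcript length and to the total of the library, which allows levels of different genes to be compared. It gives no level per library, so values below carry no spread between libraries, and the depth of the libraries is unknown.

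BTB zinc finger proteins pair an N-terminal BTB domain, through which they dimerise and bind partners, with C-terminal zinc fingers that bind DNA. Most of those studied act as repressors. BCL6, the best-known member in B cells, binds corepressors such as NCoR and BCOR through its BTB domain, and HDAC3 is the deacetylase of the NCoR complex. BCL6 is known for the germinal centre, and in pre-B cells it is induced after the pre-B-cell receptor has signalled and protects cells that rearrange their light chain genes.

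Hdac3, the deleted gene, was 46.8 FPKM in the wild-type and 22.03 FPKM in the Hdac3-deleted group, a 2.12-fold lower level (q = 0.0016 in the authors' deposited table). This value covers the whole gene and not only the exons removed by the recombinase. Across the whole table, 12683 entries were tested by the authors with Cuffdiff, and 881 of them, or 6.95%, had a q under 0.05. B-lineage markers were abundant, and all 13 of those listed had higher values in Hdac3-deleted cells, with 6 past the test and a summed level of 2593 against 4125 FPKM. Markers of other cells were present too. The 9 listed plasmacytoid dendritic markers summed to 2513 and 3225 FPKM, and the 12 neutrophil and monocyte markers in the table, 8 of which fell, to 10877 and 3109 FPKM. In sorted bulk RNA, fewer cells of a type and less RNA per cell cannot be told apart.

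None of the 36 members that the authors tested passed a q under 0.05 in the authors' deposited table, in either direction, beside 6.95% of all tested entries (2.81% higher and 4.14% lower). At an unadjusted p under 0.05 there were 4 members, Bcl6b, Zbtb26 and Zbtb33 with higher and Zbtb32 with lower values in Hdac3-deleted cells, or 11.1% beside 17.1% of all tested entries (8.16% higher and 8.95% lower). At a q under 0.1 there were 2, Zbtb26 and Zbtb32 (9.18% of all tested entries). At a q under 0.01, which could only remove calls, there were 0 (4.21%). When p was taken instead from a normal distribution of Cuffdiff's statistic and adjusted over all tested entries, 0 members were called, beside 3.71%. The other 4 members, Zbtb46, Zbtb16, Zbtb8b and Zbtb7c, were below 1 FPKM in both genotypes and were marked by the authors as not tested. No member was listed at 0.

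The differences between the genotypes were small for most members. The median log2 difference (Hdac3-deleted over wild-type) of the 36 tested members was 0.06, beside 0.03 over all tested entries with a value in both genotypes. The median absolute log2 difference was 0.10 for the members and 0.22 for all tested entries. For 33 of the 36 the log2 difference was within 0.5 of 0, which is 91.7% beside 82.0% of all tested entries. These figures describe the family and were not tested against other genes. Because members are levels of different genes and not replicates, their median has no error of its own.

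**Figure D1:**
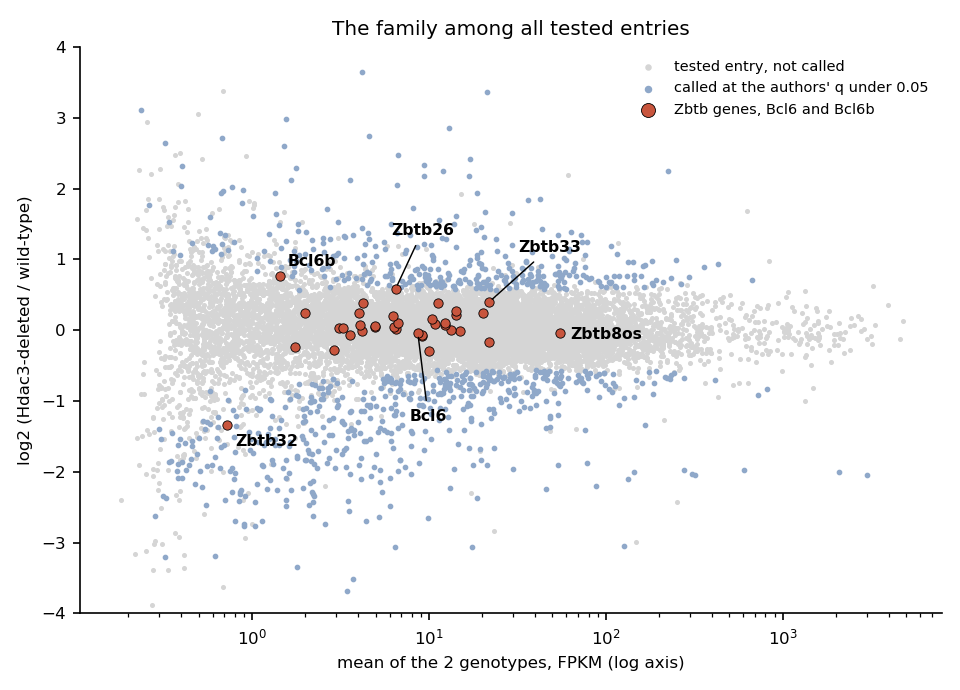
Each point is a tested entry, with the mean FPKM of the genotypes on a log axis and the log2 difference, Hdac3-deleted over wild-type, on the vertical axis; 12 entries lie outside the plotted range. The tested Zbtb genes, Bcl6 and Bcl6b sit within the grey cloud of entries that were not called, with Zbtb32 lowest at -1.34 and Bcl6b highest at 0.76.

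How large a difference could have been missed depends on the error of each value. An error was read from the authors' deposited table by dividing each log2 difference by Cuffdiff's test statistic, and a 95% interval was taken as a normal one around the log2 difference. These implied standard errors ran from 0.20 to 0.66 over the members, with a median of 0.30, the same as over all tested entries. The interval lay within 1 log2 unit of 0, thus within a 2-fold difference either way, for 29 of the 36 members. Among 7402 tested entries with a mean between 1 and 25 FPKM, a range chosen after the members' levels were seen, 7.24% had a q under 0.05. The smallest difference called in that range was 0.57 on the log2 scale, and the median called difference was 1.05.

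**Figure D2:**
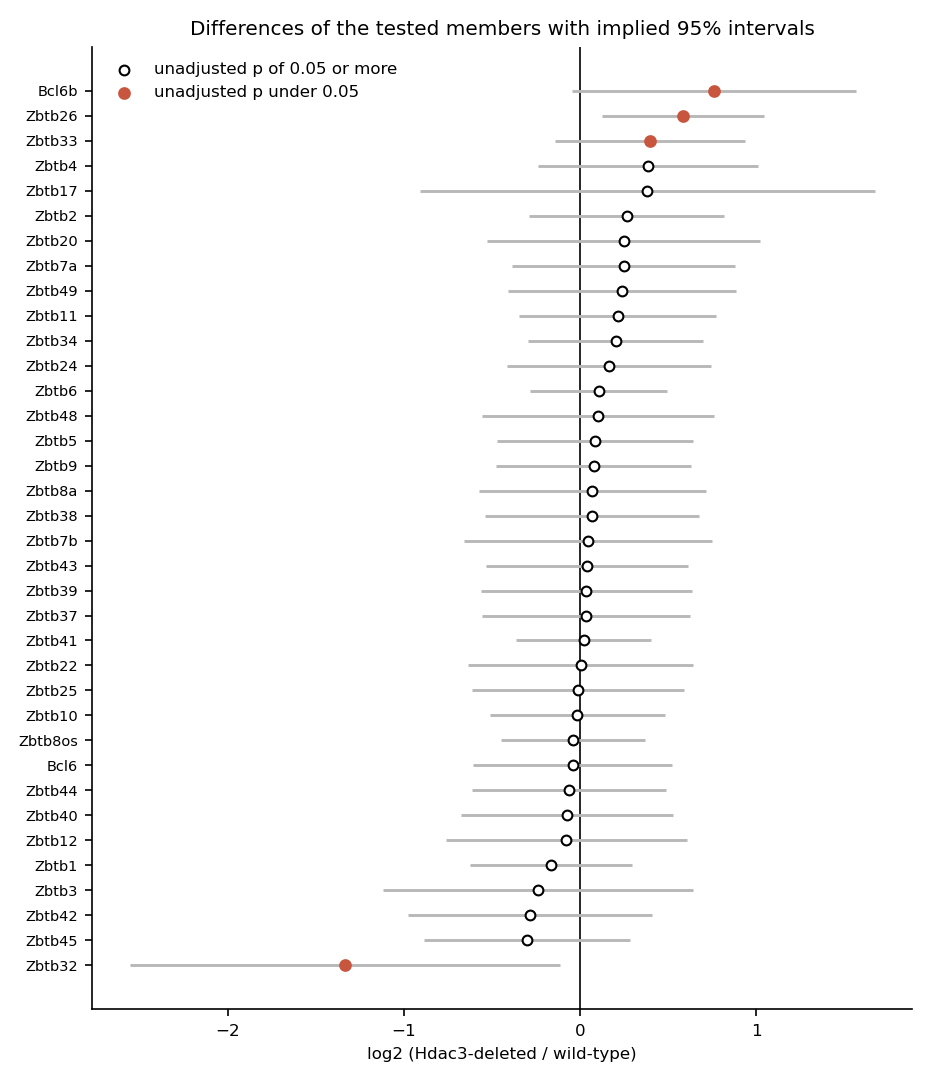
Points are the log2 differences of the 36 tested members, Hdac3-deleted over wild-type, and bars are 95% intervals implied by the authors' test statistic; filled points have an unadjusted p under 0.05. The intervals of 34 members hold 0, and those of Zbtb26 and Zbtb32 do not.

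Bcl6 did not pass the test. Bcl6 transcripts were 8.80 FPKM in the wild-type and 8.54 FPKM in the Hdac3-deleted group, a log2 difference of -0.04 with an implied interval from -0.61 to 0.52 (q = 0.97 in the authors' deposited table). The interval corresponds to a level between 0.656 and 1.44 times that of wild-type cells. Bcl6b, the close paralog of Bcl6, was much lower, at 1.07 FPKM in the wild-type and 1.81 FPKM in the Hdac3-deleted group. Its 1.70-fold difference had an unadjusted p of 0.0117 and a q of 0.118 in the authors' deposited table, and the implied interval on the log2 scale ran from -0.05 to 1.57. Bcl6 lies on chromosome 16 from 23965052 to 23988612 and Bcl6b on chromosome 11 from 70224127 to 70229798, both on the minus strand of mm10, and neither has exons that overlap those of another entry of the table.

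Bcl6 has 2 start sites among the RefSeq promoters used here (build GRCm38.p6, the same assembly as mm10), each given as 250 bases before to 50 bases after the start. The upstream window lies outside the table's locus for Bcl6, and the downstream window lies inside it. They are shown because STAT proteins and BCL6 itself are known to act on this gene, and because STAT and BCL6 sites hold the letters TTCNNNGAA. Capitals mark matches to TTCNNNGAA or to the E-box CACGTG, both of which read the same on either strand.
Bcl6, upstream start, chr16:23988803-23989102, minus strand: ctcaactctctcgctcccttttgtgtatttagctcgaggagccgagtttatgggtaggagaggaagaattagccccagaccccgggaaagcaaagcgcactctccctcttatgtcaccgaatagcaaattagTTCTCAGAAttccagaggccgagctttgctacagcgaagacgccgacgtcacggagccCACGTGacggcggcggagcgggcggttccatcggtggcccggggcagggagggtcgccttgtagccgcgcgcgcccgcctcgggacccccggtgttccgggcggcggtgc
Bcl6, downstream start, chr16:23981234-23981533, minus strand: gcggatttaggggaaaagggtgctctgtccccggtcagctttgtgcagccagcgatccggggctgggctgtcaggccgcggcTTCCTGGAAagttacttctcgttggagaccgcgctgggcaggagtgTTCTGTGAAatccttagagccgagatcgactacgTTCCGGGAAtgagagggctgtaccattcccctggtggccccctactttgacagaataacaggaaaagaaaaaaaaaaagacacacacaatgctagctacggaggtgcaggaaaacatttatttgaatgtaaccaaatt

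The downstream window held 3 matches to TTCNNNGAA, starting 168, 122 and 88 bases before the start site, as TTCCTGGAA, TTCTGTGAA and TTCCGGGAA. The upstream window held 1, TTCTCAGAA, 118 bases before its start, and 1 CACGTG, 60 bases before it. Of 32851 promoter windows in the reference, 8.30% held at least 1 match to TTCNNNGAA and 11 windows held 3 or more. Among 42 windows of 34 members, 3 held the motif, those of Bcl6 and one of Zbtb20. The E-box was found in windows of 5 members, namely Bcl6, Zbtb11, Zbtb24, Zbtb25 and Zbtb49, in 6 of 42 windows (14.3%), beside 9.84% of windows of tested genes and 7.15% of all windows. The windows of Zbtb25 overlap and hold the same site, which is counted in each of them. The forkhead letters GTAAACA were in 1 window, that of Zbtb5, beside 3.65% of all windows. A longer CG-rich palindrome bound by Kaiso, the Zbtb33 protein, was in 0 of them, beside 0.466% of all windows. Of the Kaiso letters without CG, TCCTGCNA was in 1 of the members' windows, that of Zbtb37, beside 4.96% of all windows. Both strands were searched, and a match is a description of the letters.

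Members with known roles in lymphocytes ranged from abundant to barely detected, and none passed the test. Zbtb1, needed for the development of lymphocytes, was 23.1 FPKM in the wild-type and 20.6 FPKM in the Hdac3-deleted group. Zbtb7a, which encodes LRF, a factor that holds back Notch signalling in progenitors choosing the B lineage, was 18.6 and 22.01 FPKM. Zbtb17, which encodes MIZ1, a partner of MYC needed for interleukin 7 signalling in early lymphocytes, was 9.78 and 12.8 FPKM. Its implied standard error, 0.66 on the log2 scale, was the largest of the family, and its locus in the table is shared with Spen at 9.20 and 10.5 FPKM. Zbtb24, the gene mutated in a form of the ICF immunodeficiency syndrome, was 9.89 and 11.1 FPKM. Zbtb7b, which encodes the CD4 T-cell factor ThPOK, was 4.86 and 5.02 FPKM, and Zbtb20, a factor of long-lived plasma cells, 1.82 and 2.16 FPKM. Among the 4 untested members, Zbtb46, a factor of classical dendritic cells, was 0.334 and 0.357 FPKM. Zbtb16, which encodes the innate lymphocyte factor PLZF, was 0.3199 and 0.341 FPKM, Zbtb8b was 0.0283 and 0.0313 FPKM, and Zbtb7c 0.00687 and 0.00608 FPKM.

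Zbtb32 had the largest log2 difference of the family. Zbtb32, a repressor that limits the activation and recall of lymphocytes, was 1.04 FPKM in the wild-type and 0.411 FPKM in the Hdac3-deleted group. This 2.52-fold lower value had an unadjusted p of 0.0043 and a q of 0.0573 in the authors' deposited table, just above the threshold, with an implied interval from -2.56 to -0.11 on the log2 scale. With a pseudocount of 1 FPKM the log2 difference was -0.53 in place of -1.34, since the gene is near 1 FPKM. In the same samples 3 of 6 plasma cell markers fell, beside 4.14% of all tested entries called lower. They were Igj from 239 to 93.9 FPKM, Sdc1 from 23.0 to 13.0 FPKM and Derl3 from 6.04 to 2.90 FPKM. The other 3 had higher values without passing the test, Xbp1 at 113 and 132 FPKM, Irf4 at 85.0 and 111 FPKM and Prdm1 at 1.67 and 2.16 FPKM. The listed plasma cell markers summed to 468 and 355 FPKM, none of them at 0, and their part in the Zbtb32 value was not tested.

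Zbtb26 was the other member near the threshold. It was 5.20 FPKM in the wild-type and 7.79 FPKM in the Hdac3-deleted group, a log2 difference of 0.58 with an implied interval from 0.12 to 1.05 (unadjusted p = 0.0047 and q = 0.0615 in the authors' deposited table). Its neighbour Zbtb6 ends the table's locus 1248 bases before that of Zbtb26 begins on chromosome 2, and both are on the minus strand. Zbtb6 was 11.9 and 12.8 FPKM, a log2 difference of 0.10 (q = 0.89 in the authors' deposited table). GENCODE M21 lists 449 exonic bases shared by the pair. The table's loci for the pair do not overlap, so these bases are not part of both entries there.

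The 3 members that bind methylated DNA had higher values in Hdac3-deleted cells, without passing the test. Higher values were also found for 24 of the 36 tested members (66.7%), and for 53.5% of all tested entries with a value in both genotypes. Zbtb33, which encodes Kaiso, was 18.9 FPKM in the wild-type and 24.9 FPKM in the Hdac3-deleted group, a 1.32-fold difference with an unadjusted p of 0.0391 and a q of 0.252 in the authors' deposited table. In GENCODE M21 the exons of Zbtb33 overlap those of Fam70a (Tmem255a), on the opposite strand of the X chromosome, over 474 bases. Fam70a rose 4.73-fold from 4.19 to 19.8 FPKM (q = 0.0016 in the authors' deposited table). The sources used here do not say if strand was kept, so fragments from these bases cannot be traced to a gene by strand. No other entry of the table shares the Zbtb33 locus, so the overlap need not be in the authors' gene models. The part of Fam70a in the Zbtb33 value was not tested. Zbtb4 was 3.69 and 4.83 FPKM, with a q of 0.317, and Zbtb38 was 4.86 and 5.09 FPKM, with a q of 0.942, both in the authors' deposited table. Of 10 other genes, namely methyl-CpG readers, DNA methyltransferases and Ctnnd1, whose product p120 catenin binds Kaiso, 0 passed the test, and Uhrf1 at 172 and 133 FPKM, Mbd2 at 98.7 and 102 FPKM and Dnmt1 at 97.8 and 85.1 FPKM had the highest means. At an unadjusted p under 0.05 this list also had 0 members. Among all tested entries, 6.95% had a q under 0.05 and 17.1% an unadjusted p under 0.05.

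The members that bind telomere repeats or related DNA were low and nearly level. Zbtb48, which encodes the telomere protein TZAP, was 6.46 and 6.93 FPKM, Zbtb10 was 4.23 and 4.19 FPKM, and Zbtb40 was 3.67 and 3.48 FPKM in wild-type and Hdac3-deleted cells. Their log2 differences lay between -0.07 and 0.10, with the highest upper bound of the implied intervals at 0.76.

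The remaining BTB zinc finger members have less settled roles in B cells. Zbtb25 was 15.1 and 15.0 FPKM, Zbtb22 was 13.3 FPKM in both genotypes, Zbtb2 was 13.0 and 15.6 FPKM, and Zbtb11 was 13.1 and 15.2 FPKM. Zbtb9 at 12.1 and 12.7 FPKM and Zbtb5 at 10.5 and 11.2 FPKM were also above 10 FPKM in both genotypes. Zbtb45, at 11.1 and 9.003 FPKM, was above 10 FPKM in the wild-type only. Zbtb45, with a log2 difference of -0.30, had the second lowest value of this difference, after Zbtb32 (q = 0.54 in the authors' deposited table). Zbtb44, Zbtb12, Zbtb41, Zbtb43, Zbtb34, Zbtb8a, Zbtb49, Zbtb39, Zbtb37, Zbtb42 and Zbtb3 lay below 10 FPKM in both genotypes, with log2 differences between -0.28 for Zbtb42 and 0.24 for Zbtb49. Zbtb8os meets the name rule but is no BTB zinc finger gene. It encodes archease, a cofactor of the tRNA ligase, takes its name from the neighbouring Zbtb8 genes on the opposite strand, and was the most abundant entry at 55.9 and 54.3 FPKM.

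In the order of levels, 31 of 40 members lay between 1 and 20 FPKM in both genotypes, 4 reached 20 FPKM in at least 1, and 4 were below 1 FPKM in both. The 4 highest were Zbtb8os, Zbtb33, Zbtb1 and Zbtb7a. Zbtb33, Zbtb1 and Zbtb7a lay between 18.6 and 24.9 FPKM, and their order differed between the genotypes. Without Zbtb8os, the 39 members summed to 283 FPKM in the wild-type and 304 FPKM in the Hdac3-deleted group. With no value per library, it cannot be said which neighbours in this order differ beyond their spread. Zbtb25 and Zbtb1, which lie 705 bases apart on opposite strands of chromosome 12 and are transcribed away from each other, were 15.1 and 23.1 FPKM in wild-type cells. Zbtb8os and Zbtb8a, whose loci are 6602 bases apart on chromosome 4, were 55.9 and 3.96 FPKM, and Zbtb34 and Zbtb43 on chromosome 2 were 5.82 and 6.28 FPKM.

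**Figure D3:**
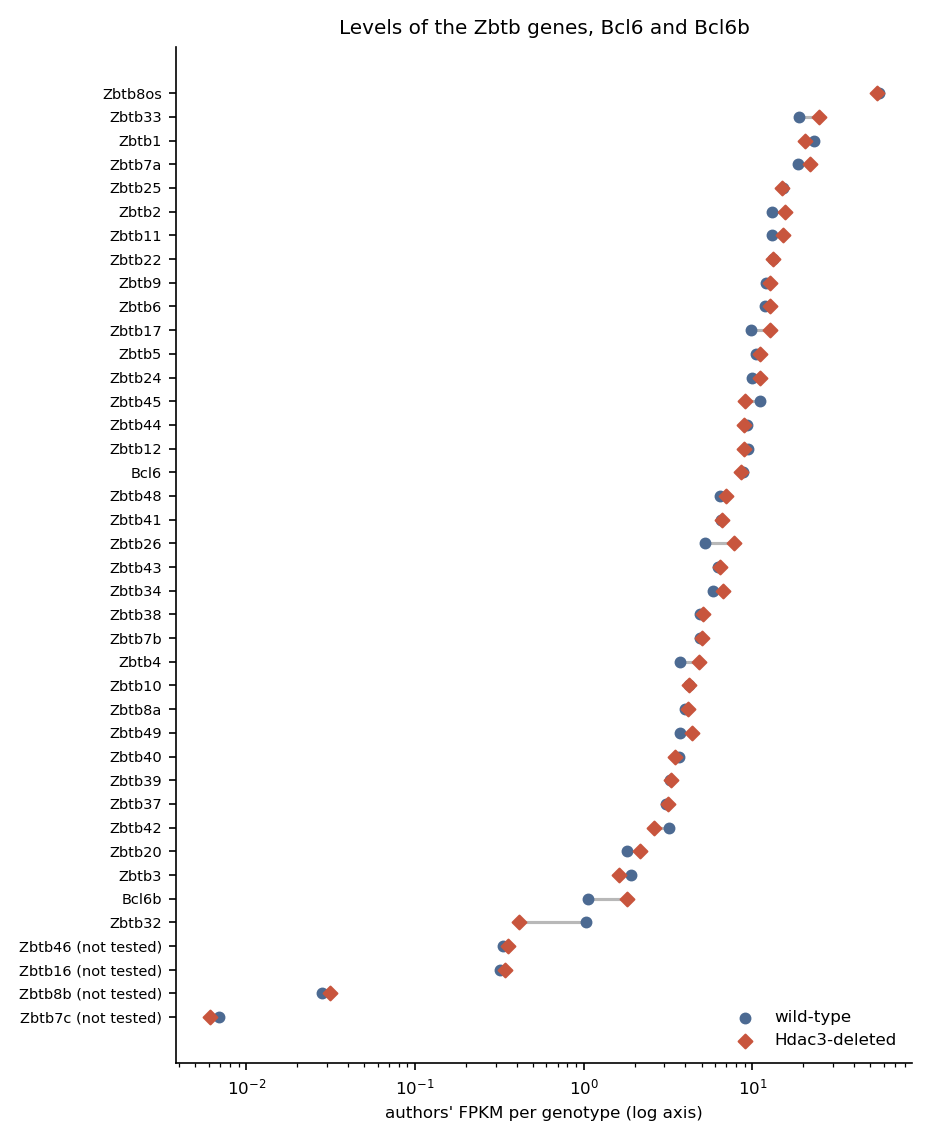
Wild-type (circles) and Hdac3-deleted (diamonds) levels in FPKM, on a log axis, for all 40 members ordered by mean level; each point is the authors' single value for a genotype. Most pairs of points touch, and the widest gaps belong to Zbtb32, Bcl6b and Zbtb26.

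A feature that the rule did not use is the CpG content of the promoters. It was read as the number of CG dinucleotides over the number expected from the C and G content of the same 300 bases, taking the highest value where a gene had several windows. Windows were matched for 33 of 38 BTB zinc finger members, leaving aside Zbtb7c, for which none was used here, and Zbtb8os. The ratio was under 0.6 for 6 of them, Zbtb46, Zbtb20, Zbtb32, Zbtb8b, Zbtb7b and Zbtb3, whose mean levels ran from 0.0298 to 4.94 FPKM with a median of 1.24 FPKM. The other 27 had mean levels from 2.91 to 21.9 FPKM with a median of 9.14 FPKM, and 20 of them were above 5 FPKM. Genes at large showed the same order. Among all tested entries with a window, the median mean level was 5.78 FPKM for those under 0.6 and 16.2 FPKM for the others. Over all entries with a window, tested or not, as counted for the members, it was 0.0172 and 11.4 FPKM. Counted by window, 33 of 42 windows of members had a ratio of 0.6 or more, or 78.6%, beside 67.2% of windows of tested genes and 35.8% of all windows. Windows were matched for only 78.8% of tested entries, so these values describe the matched genes, and nothing here is particular to the family. The threshold of 0.6 was chosen after the levels were known, and the relation is across genes of the same libraries. Several windows do not sit at the start of the table's locus. Those used for Zbtb46, Zbtb7b, Zbtb38 and Zbtb11 lie inside the locus, and those used for Zbtb32, Bcl6 and Zbtb37 lie outside it. Other members have offsets too, which are not listed here. Their ratios may thus not belong to the transcripts measured.

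The windows of Zbtb33, with the highest ratio of the family at 1.15, of Zbtb26 at 0.763, and of Zbtb32 at 0.150 for the start site that matches the table's locus, show this range, and were picked after the values of these genes were seen. Capitals mark each CG.
Zbtb33, chrX:38189543-38189842, plus strand: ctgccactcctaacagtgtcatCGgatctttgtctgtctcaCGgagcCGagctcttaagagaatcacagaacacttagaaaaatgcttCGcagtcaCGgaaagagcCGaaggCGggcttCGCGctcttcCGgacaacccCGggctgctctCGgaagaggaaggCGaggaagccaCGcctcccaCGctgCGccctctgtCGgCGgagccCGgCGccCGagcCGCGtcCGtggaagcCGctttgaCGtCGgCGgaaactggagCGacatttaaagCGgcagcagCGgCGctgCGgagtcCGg
Zbtb26, chr2:37443123-37443422, minus strand: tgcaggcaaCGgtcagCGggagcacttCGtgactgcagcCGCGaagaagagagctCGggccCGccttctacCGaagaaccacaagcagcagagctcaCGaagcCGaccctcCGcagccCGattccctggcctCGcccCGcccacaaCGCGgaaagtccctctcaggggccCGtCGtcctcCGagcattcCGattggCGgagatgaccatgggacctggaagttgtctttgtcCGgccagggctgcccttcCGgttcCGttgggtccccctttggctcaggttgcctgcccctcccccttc
Zbtb32, chr7:30592893-30593192, minus strand: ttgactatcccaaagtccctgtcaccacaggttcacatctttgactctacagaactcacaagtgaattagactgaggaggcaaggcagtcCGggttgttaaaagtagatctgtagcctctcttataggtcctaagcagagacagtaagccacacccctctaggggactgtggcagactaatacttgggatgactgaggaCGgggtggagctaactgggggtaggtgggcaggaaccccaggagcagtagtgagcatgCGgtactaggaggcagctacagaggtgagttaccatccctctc
The Zbtb33 window held 34 CG dinucleotides, that of Zbtb26 held 24 and that of Zbtb32 held 3.

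**Figure D4:**
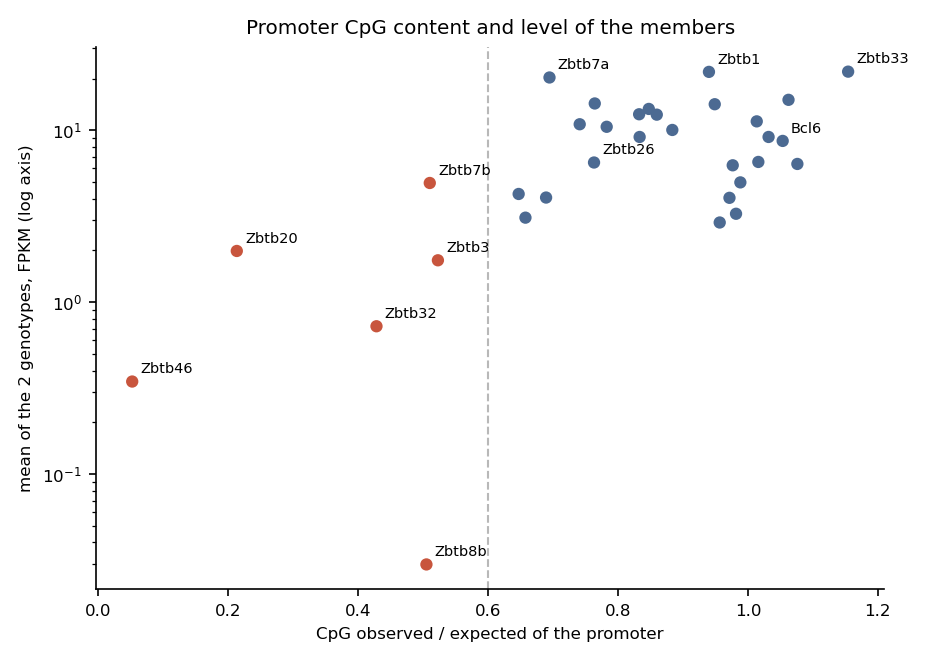
The ratio of observed to expected CpG in the promoter window (horizontal) against the mean FPKM of the genotypes on a log axis, for the 33 BTB zinc finger members with a window; the dashed line is at 0.6. The 6 members left of the line (Zbtb46, Zbtb20, Zbtb32, Zbtb8b, Zbtb7b and Zbtb3) all lie below 5 FPKM.

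BTB zinc finger genes under other names were counted as well. Among all tested entries, 6.95% had a q under 0.05 and 17.1% an unadjusted p under 0.05. At these shares, lists as short as those below can hold 0, so their counts say little. Of 8 tested, including Zfp238, Zfp161 and Zfp295, the table's names for Zbtb18, Zbtb14 and Zbtb21, 0 passed the test and 0 had an unadjusted p under 0.05. Zfp238 was 49.7 and 45.4 FPKM, Zfp131 was 44.9 and 42.8 FPKM, and Patz1, a factor known from thymocytes, was 22.2 and 29.4 FPKM in wild-type and Hdac3-deleted cells. Patz1 shares its locus with another gene's entry and has an implied standard error of 0.75. Of 6 other BTB proteins and BTB partners, 0 passed the test and 1 had an unadjusted p under 0.05. Cul3, the scaffold of BTB-based ubiquitin ligases, was 91.6 and 93.3 FPKM, Bach2, a BTB factor of the bZIP kind needed in B cells, was 61.2 and 57.2 FPKM, and Nacc1 was 34.4 and 37.8 FPKM.

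Of 20 corepressors and deacetylases linked to BCL6, 3 passed the test, 1 of them the deleted gene Hdac3, beside 6.95% of all tested entries. Their levels ran from Bcorl1 at 1.28 and 1.68 FPKM and Hdac4 at 2.86 and 3.16 FPKM to over 100 FPKM. Besides Hdac3, which fell, Hdac7, a class IIa deacetylase of B-cell progenitors, rose 2.09-fold from 49.1 to 103 FPKM (q = 0.0016 in the authors' deposited table). Hdac7, Ncor1 and Bcor have loci that other entries share. Tbl1x, a WD-repeat subunit of the NCoR complex, rose 1.54-fold from 30.4 to 46.7 FPKM (q = 0.0266 in the authors' deposited table). The BTB-bound corepressors Ncor1 and Bcor, named after their values were seen, were 49.7 and 56.6 FPKM, and 23.5 and 24.1 FPKM, and neither passed the test. Ctbp1 at 121 and 99.7 FPKM, Hdac1 at 110 and 102 FPKM and Hdac2 at 74.1 and 60.8 FPKM had the highest means among those that did not pass. The median log2 difference of the list was 0.12.

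Genes that BCL6 is reported to repress moved both ways, with 3 higher, 2 lower and 20 not past the test of 25, beside 2.81% higher and 4.14% lower among all tested entries. Cdkn1a, which encodes p21, an inhibitor of cyclin-dependent kinases, went from 14.2 to 44.9 FPKM, a 3.16-fold rise, and Cd69, an activation marker, from 30.7 to 52.7 FPKM, a 1.72-fold rise (q = 0.0016 for both in the authors' deposited table). S1pr1, the receptor for sphingosine 1-phosphate, rose 1.61-fold from 11.2 to 17.97 FPKM (q = 0.0154 in the authors' deposited table). Chek1, a checkpoint kinase, fell 1.59-fold from 26.8 to 16.8 FPKM, and Ccl3, a chemokine, 1.91-fold from 22.7 to 11.9 FPKM (q = 0.0209 and 0.0113 in the authors' deposited table). Cxcr4 at 254 and 366 FPKM, Irf4 at 85.0 and 111 FPKM and Trp53 at 82.2 and 102 FPKM had the highest means and did not pass the test. The median of the list was 0.21, beside 0.03 over all tested entries. The list was drawn from general knowledge of BCL6 in other B-cell stages, and its genes have other regulators too.

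Of 16 genes known to act on Bcl6 transcription or protein, 3 rose and 0 fell, beside 2.81% higher and 4.14% lower among all tested entries. Foxo1, a forkhead activator, rose 2.03-fold from 38.3 to 77.6 FPKM (q = 0.0016 in the authors' deposited table). Blnk, the adaptor of pre-B-cell receptor signalling, went from 220 to 370 FPKM, a 1.68-fold rise, and Pax5, which commits cells to the B lineage, from 79.7 to 121 FPKM, a 1.52-fold rise (q = 0.0216 and 0.0354 in the authors' deposited table). Irf8 at 514 and 672 FPKM and Il7r at 151 and 189 FPKM had the highest means among those that did not pass. The median of the list was 0.37. Blnk, Pax5 and Ebf1 are also among the B-lineage markers, of which 6 of 13 rose with a median of 0.49, and the part of B-lineage content in these values was not tested.

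Genes around MIZ1 and LRF were also listed. Of 13 tested partners and targets of MIZ1, Cdkn1a rose and Gfi1, a zinc finger repressor, fell 1.57-fold from 9.38 to 5.98 FPKM (q = 0.0457 in the authors' deposited table), and Max was 61.0 and 68.0 FPKM and Huwe1 39.3 and 44.7 FPKM. Bcl6, a partner of MIZ1, and Il7r are in this list as well, and its median was 0.18. Of 12 tested genes around LRF, made up of 11 Notch pathway genes and the cell death gene Bcl2l11, Dtx1, a Notch target, fell 3.00-fold from 1.63 to 0.542 FPKM (q = 0.0016 in the authors' deposited table). The other 11 had positive log2 differences and did not pass the test, among them Notch1 at 20.6 and 29.1 FPKM, Rbpj at 21.9 and 24.9 FPKM and Hes1 at 21.6 and 25.1 FPKM, and the median was 0.33. Among all tested entries 6.95% passed the test, and 53.5% of those with a value in both genotypes had a positive difference. Under the normal approximation Gfi1 and Dtx1, which is near 1 FPKM, were not called, with adjusted p-values of 0.439 and 0.060.

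**Figure D5:**
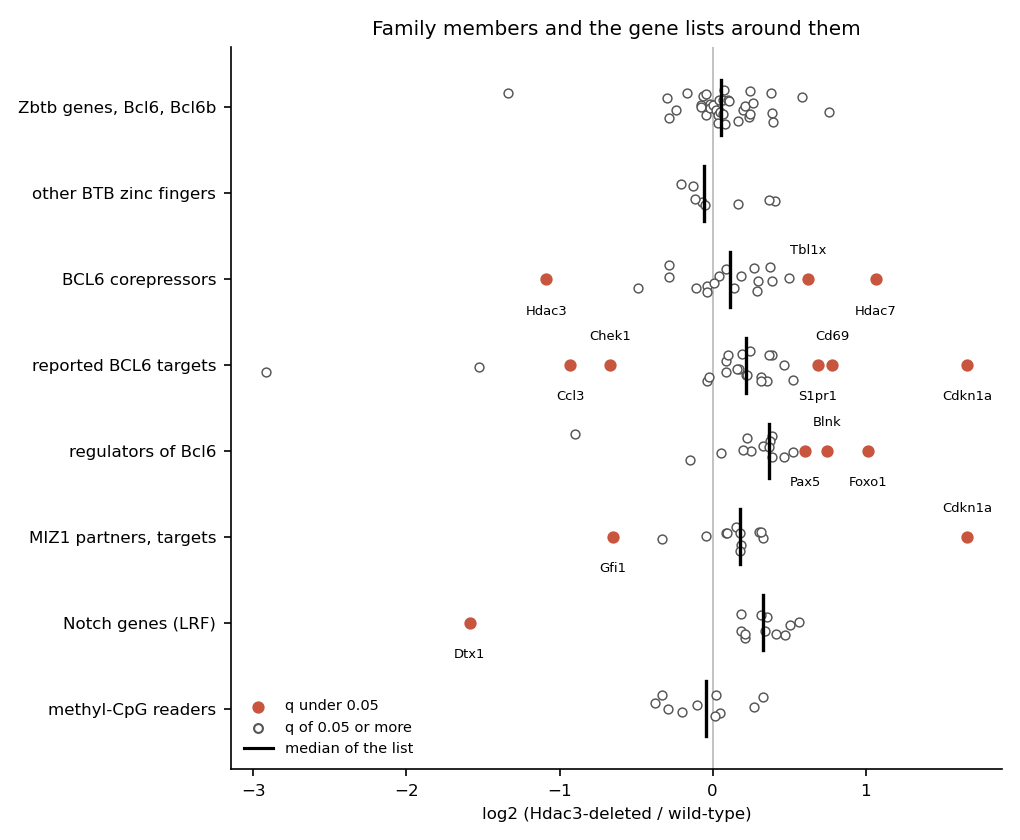
Log2 differences, Hdac3-deleted over wild-type, of the tested members and of the gene lists around them; filled points passed the authors' q under 0.05 and are named, open points did not, and bars are list medians. No point of the Zbtb genes with Bcl6 and Bcl6b is filled, while the corepressor, target and regulator lists of BCL6 hold 3, 5 and 3 filled points.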

How the data were processed

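RNA was measured in 4 libraries, 2 per genotype, with genotypes taken from the labels. The submitters' processing notes name Trimmomatic (0.32), TopHat2 (2.0.11), Cuffdiff (2.1.1) and mm10. Options and gene annotation: not given in the sources used here. Each gene of the deposited table has, per the file headers, an FPKM value for each genotype, Cuffdiff's test statistic (a score), and the authors' p-value and q-value. The q-value was checked against a Benjamini-Hochberg adjustment over the 12683 tested entries (largest difference 5.27e-07). The smallest deposited p-value is 5e-05. No leaving out of a library was possible.

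Ratios of the deposited FPKM values, without a pseudocount, gave the fold changes, and a gene was called at the authors' q under 0.05. Implied standard errors are the log2 fold change over the test statistic, and the adjustment was tested on simulated data. Loci were shifted to count from 1 and exon overlaps taken from GENCODE M21. Older symbols of overlapping genes were matched through RefSeq synonyms. Any member could be named. Of each list the called genes and up to 3 others with the highest mean were named. Members and lists were chosen with earlier results of these data known. A RefSeq promoter was matched for 34 members. Erythroid, basophil, T-cell and conventional dendritic marker lists were also computed. Versions were 3.11.15 for Python, 2.4.6 for numpy, 2.3.3 for pandas, 3.10.9 for matplotlib and 1.17.1 for scipy.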

Additional observations from a re-analysis of the deposited data

How the results depend on the processing

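The count of 0 called members was also found under the normal approximation, which calls fewer entries, 3.71% beside 6.95% of all tested ones. Zfp161, Zfp238 and Zfp295 were added after the data were seen. None of these genes was called, so adding them could not change the count. A q under 0.01, a 1.5-fold minimum and either FPKM minimum also gave 0, as did leaving out shared loci or Zbtb8os. These settings can only remove calls, so their result was fixed by the main count. At a q under 0.1 the count was 2 (Zbtb26 higher and Zbtb32 lower, 5.56% beside 9.18% of all tested entries), and at an unadjusted p under 0.05 it was 4. The BCL6 corepressor count of 3 was 2 at a q under 0.01, 2 under the normal approximation and 5 at an unadjusted p under 0.05. Leaving out shared loci, which removes Hdac7, gave 2. The count of 5 reported targets was 2 at a q under 0.01, 4 under the normal approximation and 8 at an unadjusted p under 0.05. The count of 3 regulators was 1 at a q under 0.01 and 1 under the normal approximation, and 5 at an unadjusted p under 0.05. Apart from the leaving out of shared loci, these shifts follow from the threshold itself or, for the normal approximation, from its larger p-values. The approximation had 1305 entries under 0.05 unadjusted in place of 2170. The members' median log2 difference stayed between 0.03 and 0.07 under every setting tried. Centring on the median gene changed the sign of 2 of 36 members, Zbtb22 and Zbtb41, and a pseudocount of 1 FPKM moved 1, Zbtb32, by more than its implied error. No paired analysis was possible because the table gives no value per library, and for the same reason no replicate was left out. The lack of such values and of depth limits all errors given here.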

Other observations

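Markers of further cell types that were computed but enter no comparison of the family were as follows. All 5 basophil and mast cell markers had lower values in Hdac3-deleted cells, and Prss34 and Mcpt8 passed the test. Of 14 T, NK and innate lymphoid markers, Tcf7 and Eomes rose. Under the normal approximation neither was called, with adjusted p-values of 0.337 and 0.432. Of 7 tested conventional dendritic markers, Cd209a rose 1.67-fold from 42.0 to 70.1 FPKM, while Zbtb46, the family member known from these cells, stayed below 0.4 FPKM in both genotypes and was not tested. Of 4 tested erythroid markers, Car2 fell 2.07-fold. These counts stand beside 2.81% called higher and 4.14% called lower among all tested entries.

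Exons of 14 members overlap those of another entry of the table in GENCODE M21, for 9 of them on the opposite strand. The gene models behind the deposited values need not hold these overlaps, since their annotation is not given. Among the overlapping entries that are not members, Fam70a alone passed the test. The longest overlaps were those of Zbtb37 with Serpinc1, 2942 bases, and of Zbtb9 with Ggnbp1, 2938 bases, and Serpinc1 at 1.10 and 1.37 FPKM and Ggnbp1 at 1.45 FPKM in both genotypes were low.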
